A study of Homo sapiens with 9 samples.

Results

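Zinc finger genes of chromosome 19 were taken as the protein-coding genes of that chromosome whose symbol starts with ZNF in the GENCODE annotation on GRCh37. The rule gave 248 of the 1436 protein-coding genes of chromosome 19, and the other 1188 served for comparison. Of the 248 genes, 234 lay in 10 clusters, defined here as runs of at least 5 genes whose starts were no more than 500 kb apart, and 14 lay outside them. Accessible chromatin was mapped with ATAC-seq, which uses Tn5 transposase to cut and tag DNA that is not covered by nucleosomes, in the chronic myeloid leukaemia line K562. The 9 libraries came from 3 genotypes with 3 replicates each: the parental cells without a STAG2 mutation (wild type), 1 CRISPR-Cas9 edited line heterozygous for STAG2 R614*, and 1 edited line homozygous for it, whose libraries are titled as null and carry a -/- genotype label. The homozygous cells were adherent and were detached with trypsin, so genotype, line and adherent growth cannot be told apart. Nothing in the labels says that replicates came from separate cultures, so p-values measure only the spread between these libraries.

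The ZNF genes encode proteins with arrays of C2H2 zinc fingers, many of which also carry a KRAB domain. KRAB zinc finger proteins bind DNA, often in transposable elements, and recruit TRIM28 and the histone methyltransferase SETDB1 to silence it. The clusters of chromosome 19 arose by tandem duplication, and the finger-coding ends of the genes are known to carry the silencing mark H3K9me3 while the promoters are active. STAG2 is a subunit of cohesin, the ring complex that forms chromatin loops and accumulates at CTCF sites. Among 245 ZNF genes with a canonical coding sequence on GRCh37, 243 held at least 1 C2H2 finger pattern. The median was 12 fingers and the highest number was 36, in ZNF208. The largest coding exon, which usually encodes the finger array, held a median of 87.5% of the coding sequence.

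Each library was deposited as a list of peaks, with no read counts, and read depth is unknown. Strong peaks were the 50000 peaks of each library with the highest deposited −log10 p on chromosomes 1 to 22 and X, and the full list was also used. A lower rank number means a stronger peak, so a peak past rank 50000 is weak but not absent. The full lists held between 181579 and 319986 intervals. Wild type replicate 3 and heterozygous replicate 1 had identical coordinates at 46.0% of the shorter list's intervals, and at 34.3% of those at ZNF genes. For wild type replicates 1 and 2 the shares were 23.2% and 14.6%. These lists are not independent, and exact p-values that count 9 libraries overstate the evidence. STAG2 itself held 17, 15 and 16 strong peaks in wild type, 16, 17 and 16 in heterozygous and 13, 8 and 6 in homozygous libraries, but a peak list does not show the mutated base. Among erythroid markers, TAL1 and TFRC had a strong promoter peak in 9 of 9 libraries, while GATA1 and KLF1 had one in 0 of 9 and a weaker one in 8 and 4. The 7 markers of other lineages had a strong promoter peak in 0 libraries.

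Wild type replicate 3 shared promoter gaps with the heterozygous libraries at some ZNF genes. In the full lists, 8 ZNF genes (3.23%) had a promoter peak in wild type replicates 1 and 2 but in neither wild type replicate 3 nor any heterozygous library, against 1.10% of all protein-coding genes. They were ZNF256, ZNF264, ZNF433, ZNF549, ZNF556, ZNF835, ZNF90 and ZNF98, and 6 of them had a promoter peak in all 3 homozygous libraries. The same pattern held for 1 gene, ZNF829, when wild type replicate 1 was the odd library, and for 0 genes with wild type replicate 2. Wild type replicate 3 differed from heterozygous replicate 1 at 6 ZNF promoters from heterozygous replicates 2 and 3 at 15 and 10, and from wild type replicates 1 and 2 at 18 and 15. Results were therefore also computed without wild type replicate 3 and heterozygous replicate 1, the pair that shares most intervals.

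The first comparison asked how many ZNF promoters were open in each genotype. A promoter counted as open when the centre of a strong peak lay within 1 kb of any protein-coding start site of the gene. ZNF promoters were open more often than those of the other chromosome 19 genes in every library, by between 15.9 and 25.4 percentage points. The wild type libraries had 68.1%, 70.6% and 70.2% of ZNF promoters open, the heterozygous libraries 71.0%, 69.4% and 72.6%, and the homozygous libraries 77.0%, 75.8% and 70.6%. Homozygous replicate 3 lay within the range of the other genotypes, so the groups overlapped. The means were 69.6% ± 1.30, 71.0% ± 1.61 and 74.5% ± 3.43 (n = 3 each, SD), and an exact permutation test across genotypes gave p = 0.107, or 0.125 adjusted over 5 measures.

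At the other chromosome 19 genes the homozygous libraries stood apart from the rest. Their promoters had a mean open share of 48.0% ± 0.764 for wild type, 47.6% ± 0.512 for heterozygous and 55.3% ± 0.643 for homozygous libraries (n = 3 each, SD), and all 3 homozygous libraries lay above the other 6. The lead of the ZNF genes was 21.7, 23.4 and 19.2 points in the 3 genotypes (exact permutation p = 0.0643, adjusted 0.113). Among the 20000 strongest peaks it was 17.6, 17.3 and 9.03 points (exact permutation p = 0.0321, adjusted 0.0321). Among the 100000 strongest it was 21.3, 20.9 and 21.5 points (exact permutation p = 0.857), and in the full lists the adjusted p was 0.104 (exact permutation test). Without wild type replicate 3 and heterozygous replicate 1, the adjusted exact permutation p was 0.238 both for the ZNF promoter share and for its lead. In the full lists, ZNF promoters held a peak at 85.3% ± 1.16, 80.8% ± 1.42 and 89.4% ± 2.43 (n = 3 each, SD; exact permutation p = 0.00357, adjusted 0.00893), the smallest p the design allows. Those lists differ in length between libraries. At an equal length of 100000 peaks the shares were 79.2%, 78.0% and 85.1% (exact permutation p = 0.0321, adjusted 0.0714). For comparison, the 265 ZNF genes of other chromosomes had 78.1%, 79.4% and 81.5% of promoters open in the strong lists, with all wild type libraries below the other 6.

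**Figure D1:**
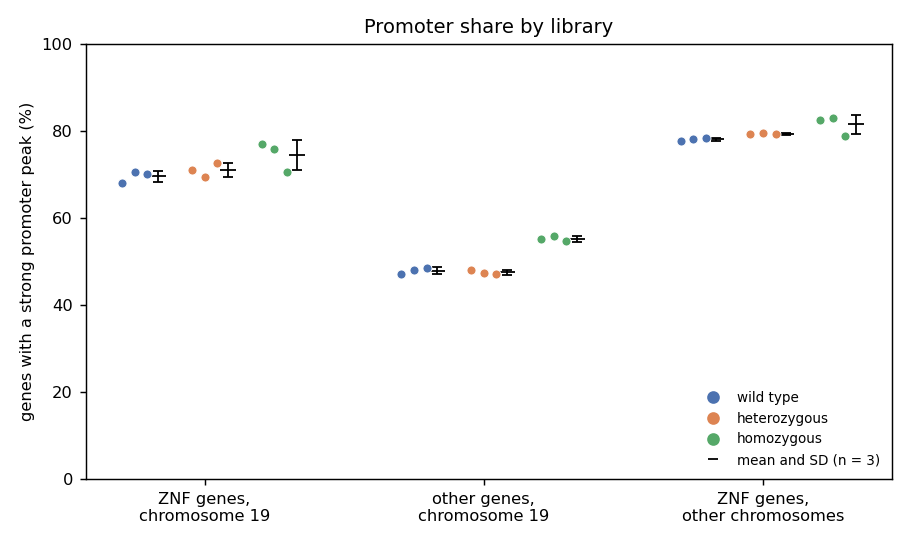
Percent of genes with a strong promoter peak (y axis) for ZNF genes of chromosome 19, other genes of chromosome 19 and ZNF genes of other chromosomes, with 1 point per library and black bars for the mean and SD of 3 libraries. Homozygous points of the other chromosome 19 genes lie between 54.7% and 56.0%, above all their other points, while homozygous and wild type points overlap at the ZNF genes of chromosome 19.

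In 132 ZNF genes (53.2%) the promoter was open in all 9 libraries, against 440 of the 1188 other genes. It was open in none for 33 ZNF genes (13.3%) and for 438 others (36.9%). In the full lists, 13 of the 248 ZNF genes had no promoter peak in any library. From wild type to homozygous, 45 ZNF promoters were open in more libraries and 24 in fewer, with 179 equal. Among the other 1188 genes, 199 were open in more and 28 in fewer. Whether a promoter is open in fewer cells or less open in each cell cannot be told apart in these bulk samples.

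The strength of the promoters open in all 9 libraries was described by their rank. For the 132 ZNF promoters the mean of the library medians was 13111 ± 1115 for wild type, 13043 ± 1510 for heterozygous and 11613 ± 1352 for homozygous libraries (n = 3 each, SD). The homozygous values, 10767.5, 10899.5 and 13172, overlapped with those of the other genotypes. For the 440 other promoters these means were 15634 ± 404, 16724 ± 764 and 7627 ± 1166 (n = 3 each, SD), and all homozygous values were stronger than the other 6. ZNF promoters therefore outranked the others in 6 of 6 wild type and heterozygous libraries, and the order was the opposite in all 3 homozygous libraries. This measure was added after the data were seen. An exact permutation test across genotypes gave an unadjusted p of 0.336 for the ZNF promoters and 0.00357 for the others. The change of order between the classes was not tested. Median GC content was 59.3% in ZNF promoters and 64.3% in the others. Within each of 5 GC classes the ZNF promoters were open more often in the mean of every genotype, with a gap in wild type from 59.7% against 20.4% under 55% GC to 60% against 56.7% at 70% GC and above. In that highest class, with 15 ZNF genes, 3 single libraries had the opposite order. The part of GC content in the genotype difference was not tested. Over all strong peaks, median GC lay between 49% and 49.8% in every library.

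**Figure D2:**
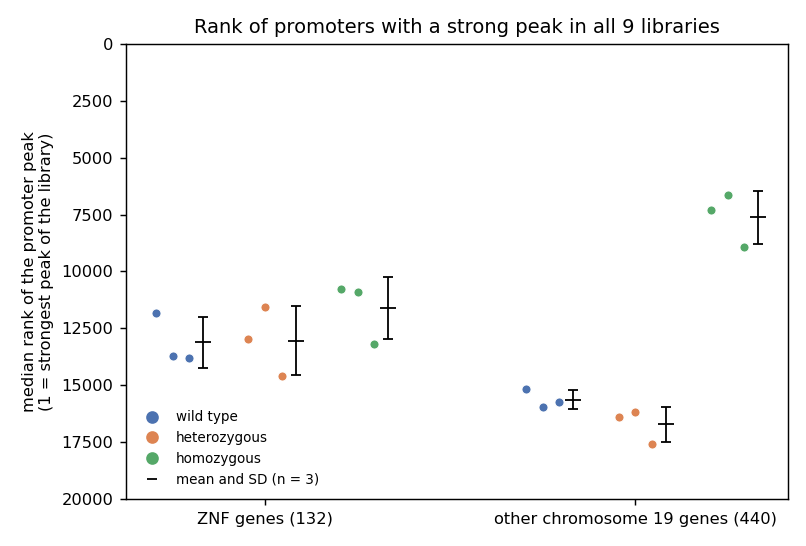
Median rank of the promoter peak (y axis, 1 is the strongest peak of a library) for genes whose promoter was open in all 9 libraries, with 1 point per library and the mean and SD of 3 libraries. The 440 other chromosome 19 promoters move from about rank 15634 in wild type to 7627 in homozygous libraries, and the 132 ZNF promoters from 13111 to 11613 with overlapping points.

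Inside the gene bodies, more than 1 kb from any start site, strong peaks were sparse at ZNF genes. The wild type libraries held 31, 29 and 26 body peaks in 6.21 Mb of ZNF gene body, the heterozygous libraries 21, 25 and 24, and the homozygous libraries 33, 35 and 26. As a density this was 4.62 ± 0.405, 3.76 ± 0.335 and 5.04 ± 0.761 peaks per Mb (n = 3 each, SD; exact permutation p = 0.0679, adjusted 0.113). Wild type and homozygous libraries overlapped, and the 3 heterozygous libraries lay below the other 6. The other chromosome 19 gene bodies held 12.2 ± 0.471, 11.3 ± 0.925 and 17.4 ± 0.385 peaks per Mb (n = 3 each, SD), with all 3 homozygous libraries above the other 6. The other gene bodies were thus between 2.47 and 4.08 times as dense in every library. The log2 ratio of ZNF to other density was −1.40, −1.59 and −1.79 in the 3 genotypes (exact permutation p = 0.125, adjusted 0.125). In the full lists it was −0.80, −1.04 and −1.11 (exact permutation p = 0.0214, adjusted 0.0357). Without wild type replicate 3 and heterozygous replicate 1, the adjusted exact permutation p was 0.238 for the density and 0.0952 for the log2 ratio.

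The largest coding exons made up 5.13% of ZNF body bases and held 0 strong peaks in all 9 libraries. In the full lists they held between 0.578% and 3.85% of the ZNF body peaks. In the other genes, the largest coding exons made up 1.94% of body bases and held between 1.84% and 3.11% of strong body peaks. Between 96.2% and 100% of ZNF body peaks lay in introns. In 191 of the 248 ZNF genes (77.0%) no library had a strong body peak, against 64.4% of the other genes. In 9 ZNF genes (3.63%), against 106 of the others (8.92%), all 9 libraries had one. These were ZNF93, ZNF682, ZNF708, ZNF98, ZNF675, ZNF536, ZNF507, ZNF577 and ZNF816-ZNF321P. ZNF536, a gene of 488696 bp whose product acts in neurons, had 3, 3 and 2 body peaks in wild type, 2, 1 and 2 in heterozygous and 2, 3 and 2 in homozygous libraries.

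**Figure D3:**
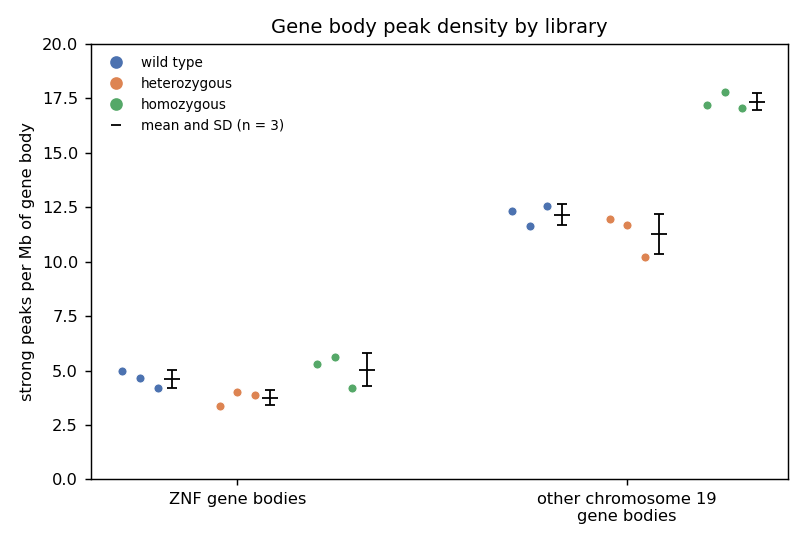
Strong peaks per Mb of gene body (y axis) for ZNF genes and other genes of chromosome 19, with 1 point per library and the mean and SD of 3 libraries. ZNF bodies lie between 3.38 and 5.63 peaks per Mb, and the other bodies between 10.2 and 17.8 with the homozygous libraries highest.

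Counting the body and 5 kb on each side, and without correcting for length, the ZNF genes with most strong peaks were ZNF254, ZNF730 and ZNF816-ZNF321P, each with a mean of 3.67 over 9 libraries. ZNF254, on chr19:24216207-24312770, had 5, 4 and 4 peaks in wild type, 3, 4 and 5 in heterozygous and 3, 2 and 3 in homozygous libraries. Its promoter peak was among the strongest of the family, with ranks between 725 and 5382. ZNF730 had ranks between 17 and 3800. ZNF83, ZNF587B, ZNF627, ZNF432, ZNF586, ZNF665 and ZNF675 completed the 10 with most peaks, and of these 10 genes only ZNF665 lacked an open promoter in some library. In contrast, 20 ZNF genes had no strong peak in any library, the longest of which were ZNF541, ZNF793 and ZNF492. ZNF541, a testis gene of 52459 bp, had a promoter peak in 1 full list, at rank 275935.

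Peaks at ZNF genes were a smaller share of chromosome 19 in the homozygous libraries. Of the strong peaks in or within 5 kb of chromosome 19 genes, 20.4%, 21.1% and 21.4% lay at ZNF genes in wild type, 21.1%, 21.5% and 22.3% in heterozygous and 18.6% and 17.9% in homozygous replicates 2 and 3. In homozygous replicate 1 it was 253 of 1332 peaks. The 3 homozygous libraries lay below the other 6. The means were 21.0% ± 0.491, 21.7% ± 0.616 and 18.5% ± 0.557 (n = 3 each, SD; exact permutation p = 0.00714, adjusted 0.0357). The adjusted p was 0.0714 when wild type replicate 1, wild type replicate 2, heterozygous replicate 2 or heterozygous replicate 3 was left out (exact permutation test), and 0.0476 without wild type replicate 3 and heterozygous replicate 1. With lists that share intervals joined to 1 source it was 0.143, and with the 100000 strongest peaks 0.0714 (exact permutation test). Joining left 7 sources with 35 distinct assignments, so 1 measure alone could not pass there after adjustment over 5 measures. The number of peaks at ZNF genes was not lower, with 218, 224 and 238 in wild type, 226, 229 and 230 in heterozygous and 253, 256 and 234 in homozygous libraries. Chromosome 19 as a whole held 2.51% ± 0.0372, 2.45% ± 0.0340 and 3.10% ± 0.0802 of all strong peaks (n = 3 each, SD), so its other genes took the larger part of that difference. Copy number of chromosome 19 was not tested.

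The next comparison asked which single ZNF genes separated the genotypes. Of 226 ZNF genes with a strong peak in a wild type or homozygous library, 9 (3.98%) had more peaks in every homozygous than in every wild type library, against 5% of all such genes and 6.8% of the other chromosome 19 genes. Fewer peaks were seen in 2 (0.885%), against 5.16% of all and 1.18% of the other chromosome 19 genes. The 2 with fewer were ZNF254 and ZNF730. Without wild type replicate 3 and heterozygous replicate 1 the total of 11 became 24. Leaving out libraries relaxes the rule for every gene, and the share over all genes was not computed for that setting. No gene passed the exact permutation test with Benjamini-Hochberg adjustment over 17526 genes (0% called, smallest adjusted p 0.563). The smallest exact p the design allows is 0.00357, so a gene could pass only if very many genes shared that value. This outcome therefore says little about single genes. At an unadjusted p under 0.05 there were 7 of 228 ZNF genes (3.07%), against 7.09% of all genes. These 7 were ZNF20, ZNF256, ZNF383, ZNF444, ZNF473, ZNF676 and ZNF486.

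Promoters were then compared in the same way. Of 212 ZNF genes with an open promoter in at least 1 wild type or homozygous library, 7 (3.30%) were open in 3 of 3 homozygous and 0 of 3 wild type libraries, against 1.32% of all promoters and 3.1% of those of other chromosome 19 genes. The reverse was seen for 0 ZNF promoters and 0 of 742 other chromosome 19 promoters, against 0.71% of all. Without wild type replicate 3 the counts were 13 (6.19%) and 2 (0.952%), against 2.59% and 1.42% of all promoters. Without homozygous replicate 3 they were 10 (4.74%) and 3 (1.42%), against 2.15% and 1.24% of all promoters. The 7 genes were ZNF556, ZNF682, ZNF208, ZNF676, ZNF358, ZNF20 and ZNF256, all but ZNF358 in a cluster. Between homozygous and heterozygous libraries, 9 of 215 ZNF promoters (4.19%) were open only in the homozygous libraries. The share was 1.18% of all promoters and 2.3% of those of other chromosome 19 genes. Only in the heterozygous libraries there were 2 (0.93%), against 0.847% of all and 0.135% of other chromosome 19 promoters. The 9 were ZNF486, ZNF90, ZNF875, ZNF556, ZNF682, ZNF208, ZNF676, ZNF549 and ZNF256, and the 2 were ZNF544 and ZNF223. ZNF544 kept weaker peaks in the homozygous libraries, at ranks 79850, 79640 and 71597, against 40009, 31573 and 30788 in the heterozygous ones. Between heterozygous and wild type libraries, 0 of 201 ZNF promoters were open only in heterozygous libraries, against 0.168% of all and 0.149% of other chromosome 19 promoters. Only in wild type libraries there was 1 (0.498%), ZNF486, against 0.145% of all and 0.448% of other chromosome 19 promoters. These counts moved when libraries that share intervals were left out, which also relaxes the rule for every promoter. Leaving out wild type replicate 3 gave 8 (4%) and 6 (3%), against 1.65% and 1.55% of all promoters. Leaving out heterozygous replicate 1 gave 1 (0.498%) and 4 (1.99%), against 1.18% and 0.977% of all. Leaving out both gave 9 and 9 (4.57% each), against 2.92% and 2.58% of all promoters.

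ZNF556, on chr19:2867333-2883443 in the first cluster along the chromosome, had a promoter peak with ranks 2805, 26897 and 24896 in the homozygous libraries. The ranks were 70668 and 99162 in wild type replicates 1 and 2. The full lists of wild type replicate 3 and all heterozygous libraries held no peak there. ZNF682, on chr19:20107867-20150314, had ranks 11559, 28317 and 16048 in homozygous libraries and weak peaks between ranks 99553 and 225303 in the other 6. ZNF676 showed the same order, with homozygous ranks 13650, 25174 and 35682 and ranks of 114630 and beyond elsewhere. ZNF208, the gene with most fingers, had homozygous ranks 33358, 34180 and 4748, but wild type replicates 1 and 2 held peaks just past the limit, at 53884 and 51137. Each of the 7 genes had a weaker promoter peak in at least 1 wild type full list. ZNF90 had no promoter peak in wild type replicate 3 or in any heterozygous library, while wild type replicates 1 and 2 had ranks 23419 and 21008 and the homozygous libraries 21863, 11844 and 7094.

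**Figure D4:**
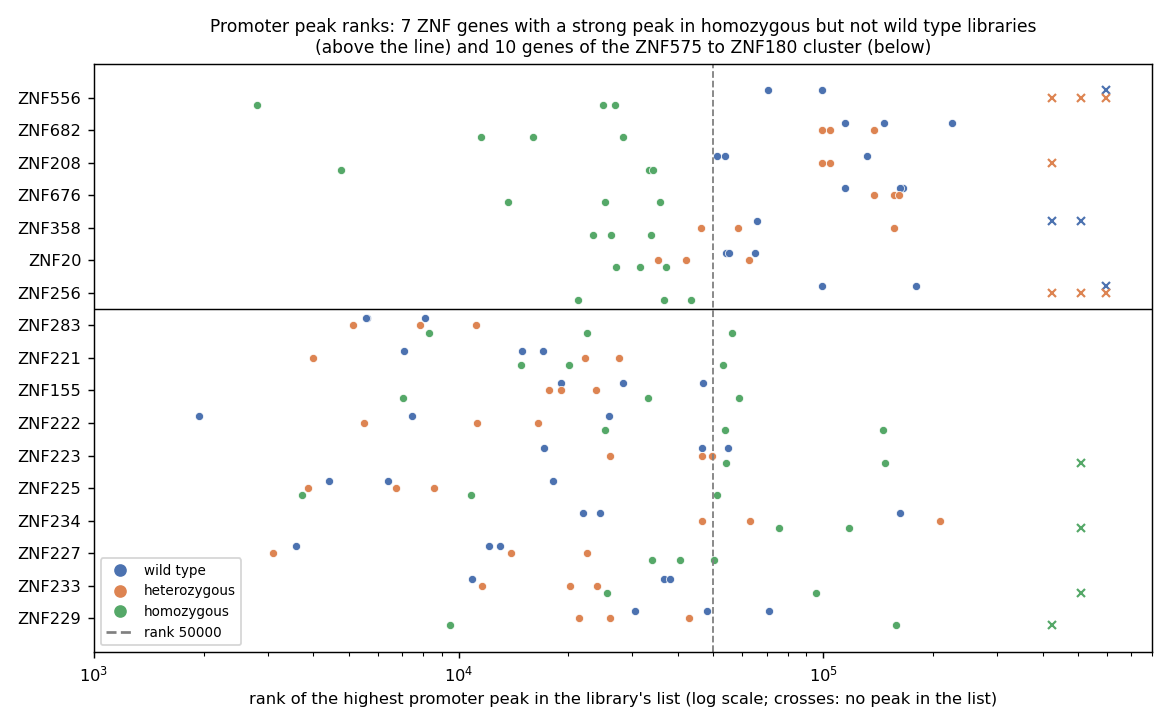
Rank of the highest promoter peak in each library (x axis, log scale, lower is stronger, crosses mark no peak in the list and are spread sideways for visibility) for 7 ZNF genes with a strong promoter peak in all homozygous and no wild type libraries, and for 10 genes of the ZNF575 to ZNF180 cluster. Homozygous points of the 7 genes lie left of the line at rank 50000, and in the 10 genes at least 1 homozygous library lies right of it.

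Each of the 10 clusters was compared across genotypes, and differences between clusters were not tested. The ZNF101 to ZNF254 cluster holds 37 genes on chr19:19779605-24312770, next to the centromere, and includes ZNF91 and ZNF93, repressors of SVA and L1 retrotransposons. It had 72.1% ± 4.13 of promoters open in wild type, 64.9% in each heterozygous library and 81.1% ± 2.70 in homozygous libraries (n = 3 each, SD; exact permutation p = 0.00357, adjusted 0.0357 over 10 clusters). The promoter share was thus lowest in heterozygous and highest in homozygous libraries, with no overlap between the 3 genotypes. The genes with a promoter open in more homozygous than wild type libraries were ZNF682, ZNF90, ZNF737, ZNF208 and ZNF676, and 1 gene, ZNF728, was open in fewer. Its share of chromosome 19 gene peaks was 4.54%, 4.05% and 3.41% in the 3 genotypes (exact permutation p = 0.00357, adjusted 0.0357). That call was lost without heterozygous replicate 2 or 3 or homozygous replicate 2 or 3, with adjusted exact permutation p between 0.0536 and 0.143, and without both shared lists (0.0952). No cluster passed on promoter share when wild type replicate 3, any one heterozygous library, homozygous replicate 1 or homozygous replicate 2 was left out, nor without both wild type replicate 3 and heterozygous replicate 1. With both left out, too few distinct assignments remain for 1 cluster to pass alone after adjustment over 10 clusters, on either measure. Of the genes in the span, 24 ZNF promoters were open in all 9 libraries and 6 in none.

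Many promoters of this cluster share sequence. The letters CCAATCA, an extended CCAAT box of the kind bound by NF-Y, occurred on either strand in 36 of 37 promoters (97.3%), taken as 250 bases before to 50 bases after the canonical start. They occurred in 28.6% of all ZNF promoters of chromosome 19, in 8.50% of the other chromosome 19 promoters and in 8.80% of all promoters. At least a pair of them occurred in 21 of the 37 (56.8%), against 1.33% of all promoters. The ZNF653 to ZNF791 cluster also held CCAATCA in 22 of 25 promoters (88%). The 3 promoters below show how alike some of the genes are although their accessibility differed, with CCAATCA in capitals. They lie on GRCh37 at chr19:22193696-22193995 (minus strand), chr19:20188559-20188858 and chr19:20277773-20278072 (plus strand).
ZNF208: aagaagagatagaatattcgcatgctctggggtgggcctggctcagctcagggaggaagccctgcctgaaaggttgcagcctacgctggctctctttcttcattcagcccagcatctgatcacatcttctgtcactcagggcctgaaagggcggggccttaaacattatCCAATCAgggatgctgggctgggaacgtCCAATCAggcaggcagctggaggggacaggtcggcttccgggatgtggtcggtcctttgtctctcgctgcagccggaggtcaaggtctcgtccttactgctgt
ZNF90: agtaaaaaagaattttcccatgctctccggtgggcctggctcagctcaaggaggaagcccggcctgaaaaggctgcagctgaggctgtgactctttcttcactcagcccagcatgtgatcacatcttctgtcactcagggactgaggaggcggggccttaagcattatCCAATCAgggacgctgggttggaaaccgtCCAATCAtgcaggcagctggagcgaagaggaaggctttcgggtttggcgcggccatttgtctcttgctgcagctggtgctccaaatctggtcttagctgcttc
ZNF486: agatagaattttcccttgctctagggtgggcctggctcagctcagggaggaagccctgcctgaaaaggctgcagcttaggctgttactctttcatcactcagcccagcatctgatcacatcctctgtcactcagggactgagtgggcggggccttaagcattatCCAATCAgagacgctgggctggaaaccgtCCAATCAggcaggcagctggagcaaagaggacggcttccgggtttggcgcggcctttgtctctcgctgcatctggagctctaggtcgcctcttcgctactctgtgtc
ZNF90 and ZNF486 were identical at 88.3% of the bases in a global alignment, ZNF208 and ZNF486 at 85.7%, and ZNF208 and ZNF90 at 83.0%. These pairs were among the most alike of those aligned in this cluster, and the lowest was ZNF676 and ZNF99 at 54.7%. ZNF676 reached at most 58% with any other promoter aligned and held no CCAATCA. ZNF682 reached at most 72%, with ZNF208. These letters and the genes compared were chosen after their values were seen. The reads were single-end reads of 100 bp, and how reads that fit several similar copies were placed is not given in the sources used here. Peaks at such promoters may therefore be uncertain between copies, which was not tested. ZNF486 had ranks 35145, 33265 and 49867 in wild type, 9964, 8198 and 19568 in homozygous libraries, and 84945, none and 104272 in heterozygous libraries.

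The ZNF575 to ZNF180 cluster, with 23 genes on chr19:44029649-45004576, had fewer open promoters in homozygous libraries. Its promoters were open at 91.3% in each wild type library, at 91.3%, 87.0% and 95.7% in heterozygous and at 69.6%, 69.6% and 73.9% in homozygous libraries, with no overlap between homozygous and other libraries. The test did not pass after adjustment (exact permutation p = 0.0357, adjusted 0.0893, or 0.0952 without wild type replicate 3 and heterozygous replicate 1). From wild type to homozygous, 10 promoters were open in fewer libraries and 0 in more: those of ZNF283, ZNF221, ZNF155, ZNF222, ZNF223, ZNF225, ZNF234, ZNF227, ZNF233 and ZNF229. In the full lists 4 were in fewer and 0 in more, so most of the 10 kept a weaker peak. With the 20000 strongest peaks 10 were in fewer and 4 in more. In 5 of the 10, ZNF283, ZNF221, ZNF155, ZNF225 and ZNF227, a single homozygous library lay past rank 50000, at ranks between 50349 and 58866. ZNF222 had ranks 1944, 25834 and 7455 in wild type, 16503, 11262 and 5506 in heterozygous and 146345, 25185 and 53768 in homozygous libraries. ZNF227 had ranks 12133, 12976 and 3590 in wild type, 3096, 13919 and 22553 in heterozygous and 34034, 50349 and 40441 in homozygous libraries. ZNF235 and ZNF226 in the same cluster kept strong promoter peaks, with homozygous ranks 7623, 5506 and 2662 and 9678, 22278 and 5925. The 13 other protein-coding genes of the span had 9, 8 and 9 open promoters in wild type, 9, 9 and 9 in heterozygous and 10, 7 and 10 in homozygous libraries.

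Promoters of this cluster carried another shared sequence. The letters TTCTGGGAA, part of the element recognised by ZNF143, occurred on either strand in 17 of 23 promoters (73.9%). They occurred in 3.11% of ZNF promoters outside the cluster, 1.35% of the other chromosome 19 promoters and 1.06% of all promoters. All 10 promoters open in fewer homozygous libraries held them, and 7 of the other 13 did, but the letters were chosen after these promoters had been read. Another stretch linked to ZNF143, CTACAATTC, occurred in 3 of the 248 ZNF promoters. More than 1 copy of TTCTGGGAA occurred in 5 of the 10 promoters open in fewer homozygous libraries and in 4 of the other 13. From those 5, the promoters of ZNF155, ZNF223 and ZNF225 are shown, with TTCTGGGAA and the ETS factor motif CCGGAAGT in capitals in either orientation. They lie on the plus strand of GRCh37 at chr19:44488090-44488389, chr19:44555939-44556238 and chr19:44617302-44617601.
ZNF155: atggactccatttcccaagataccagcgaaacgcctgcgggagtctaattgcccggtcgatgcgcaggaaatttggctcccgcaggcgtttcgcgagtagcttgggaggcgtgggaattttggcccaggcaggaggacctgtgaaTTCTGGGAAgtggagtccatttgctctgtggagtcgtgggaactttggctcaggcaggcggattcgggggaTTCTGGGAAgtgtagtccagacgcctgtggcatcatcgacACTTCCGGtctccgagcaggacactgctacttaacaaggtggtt
ZNF223: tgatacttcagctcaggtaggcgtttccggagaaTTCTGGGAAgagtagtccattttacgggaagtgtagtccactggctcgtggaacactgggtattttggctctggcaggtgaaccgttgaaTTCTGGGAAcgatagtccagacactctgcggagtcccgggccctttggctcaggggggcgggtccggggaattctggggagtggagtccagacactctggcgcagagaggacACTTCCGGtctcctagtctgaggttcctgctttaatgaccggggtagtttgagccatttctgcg
ZNF225: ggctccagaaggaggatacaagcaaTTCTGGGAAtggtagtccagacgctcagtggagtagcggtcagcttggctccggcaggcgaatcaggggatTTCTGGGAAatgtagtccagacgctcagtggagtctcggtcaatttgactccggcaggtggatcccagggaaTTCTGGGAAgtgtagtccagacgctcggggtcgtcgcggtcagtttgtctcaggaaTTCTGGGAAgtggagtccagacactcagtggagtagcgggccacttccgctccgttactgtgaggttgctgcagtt
ZNF225 held 4 copies of TTCTGGGAA, and ZNF155 and ZNF223 held 2 copies and 1 ETS match each. Over the family, CCGGAAGT occurred in 48 ZNF promoters (19.4%), against 5.81% of the other chromosome 19 promoters and 6.08% of all. It was found in 23 of 43 promoters (53.5%) of the ZNF264 to ZNF446 cluster, the last along the chromosome, and in 0 of 37 in the ZNF101 to ZNF254 cluster. A match is a description of the sequence and not of binding.

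The ZNF653 to ZNF791 cluster, with 25 genes, had 60%, 60% and 64% of promoters open in wild type, 72%, 68% and 76% in heterozygous and 84%, 88% and 72% in homozygous libraries. The homozygous and wild type values did not overlap, and the test did not pass after adjustment (exact permutation p = 0.0143, adjusted 0.0714, or 0.119 without wild type replicate 3 and heterozygous replicate 1). Without homozygous replicate 3 it passed (adjusted exact permutation p = 0.0179). In this cluster 11 promoters were open in more homozygous than wild type libraries and 0 in fewer. They included ZNF440, ZNF136, ZNF709, ZNF20 and ZNF433. ZNF709 had ranks 114575, 165837 and 49853 in wild type, 44587, 44134 and 33619 in heterozygous and 21976, 9208 and 31650 in homozygous libraries. In the ZNF264 to ZNF446 cluster the mean promoter share was 74.4%, 75.2% and 74.4% in the 3 genotypes, and 27 of its 43 promoters were open in all 9 libraries.

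**Figure D5:**
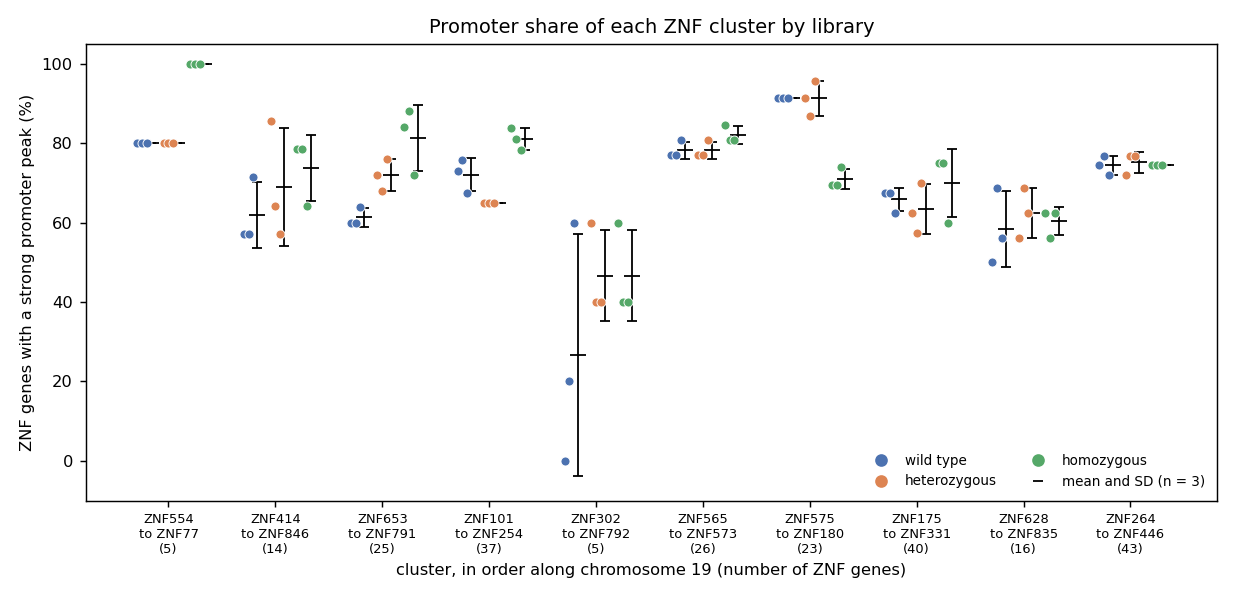
Percent of ZNF genes with a strong promoter peak (y axis) in each of the 10 clusters in order along the chromosome (x axis, number of ZNF genes in brackets), with 1 point per library and the mean and SD of 3 libraries. The ZNF575 to ZNF180 cluster has homozygous points between 69.6% and 73.9% below all its others, and the ZNF101 to ZNF254 cluster has them between 78.4% and 83.8% above its others.

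Merged regions showed where the differences lay. Of 341 regions at ZNF genes with a strong peak in a wild type or homozygous library, 13 (3.81%) were in all homozygous and no wild type libraries, against 2.7% of all regions and 3.66% of those at other chromosome 19 genes. The reverse held for 4 (1.17%), against 3.46% of all and 0.466% of those at other chromosome 19 genes. Without wild type replicate 3 and heterozygous replicate 1 the total of 17 became 32, and 1 region remained when absence was also required in the full lists. Leaving out libraries relaxes the rule for every region, and the share over all regions was not computed for these settings. Against heterozygous libraries, 14 of 342 regions (4.09%) were homozygous only, against 3.16% of all and 3.89% of those at other chromosome 19 genes. Heterozygous only were 7 (2.05%), against 3.41% of all and 0.593% of those at other chromosome 19 genes. Of the 13 regions, 8 lay within 1 kb of a ZNF start site, 2 in introns and 3 in the flanks. The 1 region with no peak in any wild type full list lay in the flank past the end of ZNF383, at chr19:37742105-37743240, with homozygous ranks 4479, 31561 and 18902. An intron region of ZNF473, at chr19:50553469-50554661, had homozygous ranks 16870, 26969 and 14887 and weak peaks in the other libraries' full lists. ZNF473 binds the U7 particle that processes histone mRNA.

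The 4 regions of wild type libraries were at ZNF254, ZNF607, ZNF155 and ZNF507. The region in the flank of ZNF607, at chr19:38182581-38183545, had ranks 30803, 34016 and 17489 in wild type and 14754, 39266 and 17771 in heterozygous libraries, and no strong peak in homozygous libraries, all of which kept a weak one. The intron region of ZNF254, at chr19:24240657-24241171, had ranks between 18872 and 28255 in the 6 wild type and heterozygous libraries. The ZNF155 region, at chr19:44487831-44488823, covers the promoter shown above, and 2 homozygous libraries still had a strong peak near another start site of that gene. Both the ZNF383 and ZNF607 regions held the letters of a CTCF core, AGGTGGCAG or AGGGGGCGC, in the 500 bases around their middle, and the match is in capitals below. The ZNF383 stretch is chr19:37742664-37742722 on the minus strand and the ZNF607 stretch chr19:38183133-38183191 on the plus strand of GRCh37.
ZNF383: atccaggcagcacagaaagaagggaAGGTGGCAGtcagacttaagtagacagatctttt
ZNF607: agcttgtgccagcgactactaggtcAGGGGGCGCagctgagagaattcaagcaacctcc
The ZNF383 match thus lay in a region strong in homozygous libraries only and the ZNF607 match in a region absent from their strong peaks. A CTCF core was found in 2 of the 13 homozygous regions, the other being the ZNF256 promoter, and in 1 of the 4 wild type regions. Either core occurred in 2.79% of all 358 strong regions at ZNF genes and in 5.55% of 1568 regions at other chromosome 19 genes. In regions open in all 9 libraries, the YY1 letters AAGATGGCG occurred in 17.1% at ZNF genes and 6.44% at other genes. The ETS letters occurred in 15.8% and 7.28%. In the promoter sequences at canonical starts, for promoters open in all 9 libraries, YY1 had the opposite order, at 1.52% and 7.95%. ETS kept its order there, at 16.7% and 10.9%. The order for the YY1 letters thus depended on the sequences searched.

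In the remaining pair, heterozygous and wild type, 0 of 295 regions at ZNF genes were heterozygous only, against 0.393% of all regions. Wild type only were 2 (0.678%), against 0.504% of all and 0.344% of those at other chromosome 19 genes. These 2 were the ZNF486 promoter and a region in the flank of ZNF230 at chr19:44518072-44518586. The count of 2 became 25 without wild type replicate 3, 10 without heterozygous replicate 1 and 35 without both. Leaving out libraries relaxes the rule for every region, and the share over all regions was not computed for these settings. The part of the shared intervals in these counts was not tested.

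A list of 20 genes was described, with partners of KRAB zinc finger proteins and also the zinc finger genes ZNF274, ZFP57 and CTCF. ZNF274 is itself a ZNF gene of chromosome 19. A strong promoter peak was present in all 9 libraries for 14 of the 20 genes, against 45.7% of all genes. A peak of any strength was present in all 9 full lists for 19 of them, against 64.2% of all genes, including TRIM28, SETDB1, the heterochromatin proteins CBX1, CBX3 and CBX5, and the chromatin remodeller ATRX. The exception was ZFP57, an imprinting factor, with a promoter peak in 2 full lists. None of the 20 passed the exact permutation test with adjustment over all genes, which the smallest possible p put nearly out of reach. EHMT1, an H3K9 methyltransferase, had 2, 3 and 4 strong peaks in wild type, 4, 3 and 4 in heterozygous and 6, 7 and 6 in homozygous libraries (exact permutation p = 0.025, adjusted 0.563). ATF7IP, which stabilises SETDB1, had 4, 4 and 4, then 4, 5 and 4, and in homozygous libraries 3, 3 and 2 (exact permutation p = 0.0357, adjusted 0.563). TRIM28, itself on chromosome 19, had an open promoter in all 9 libraries and between 1 and 2 strong peaks.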

How the data were processed

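Peak lists of 9 ATAC-seq libraries were used, 1 list per library, so replicates were not pooled. Per the submitters' processing notes, the tools were cutadapt, Bowtie2 2.2.9, Picard and MACS2 2.1.0 and the build hg19 (GRCh37), with no role or order given. Whether reads were shifted for the Tn5 offset is not given in the sources used here. The authors deposited for each peak a fold enrichment, read as a linear ratio, and the −log10 of a p-value and of a q-value. The other deposited columns, a display score and a summit offset, were used only to place summits in an alternative. Most intervals were windows of 500 bp, some joined. The lowest −log10 p was 2 in every list, and peak values were used only to rank or filter within a list.

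Genes came from GENCODE release 44 on GRCh37. Peaks were placed by their centre. Gene bodies left out bases within 1 kb of a start site and bases in genes of both classes. Values per library were compared by permuting genotype labels exactly, over 280 distinct assignments of libraries, with the between-genotype sum of squares as the statistic (two-sided in effect, smallest p 0.00357; 0.1 for a pair), with Benjamini-Hochberg adjustment over the 5 measures, the 10 clusters or all genes and a threshold of 0.05. Regions were merged strong peaks overlapping by at least 1 bp, with no test per region. Named genes were the 10 with most peaks, those whose promoter separated a pair of genotypes, the 10 with the smallest p, the 3 longest without a strong peak, and the 2 strongest separating regions per pair and direction; other names were chosen after their values were seen. Python 3.11.15, numpy 2.4.6, pandas 2.3.3 and, for promoter alignments, Biopython 1.88 were used, and the tests were checked on simulated data. Alternatives covered the choice of peaks, windows, start sites, shared lists and left-out libraries. The members, lists and tests were chosen with earlier results of these data known.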

Additional observations from a re-analysis of the deposited data

How the results depend on the processing

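Values here are homozygous minus wild type, and passing refers to the exact permutation test over all 3 genotypes, unless stated. The ZNF promoter share (4.84 points) passed the exact permutation test with the full lists (4.03) and the 20000 strongest peaks (5.24), and reversed with peaks of −log10 q of at least 5 (−1.75). Its lead over other genes (−2.48) passed with the 20000 strongest (−8.56) and reversed with the 100000 strongest (0.218). ZNF body density (0.429 per Mb) passed with the 20000 strongest (0.107), where the heterozygous libraries were lowest. The means there were 1.45, 0.805 and 1.56 per Mb in wild type, heterozygous and homozygous libraries. Homozygous against wild type alone gave an exact permutation p of 0.9. The log2 density ratio (−0.39) passed with the full lists (−0.31) and the 20000 strongest (−1.0). The ZNF share of chromosome 19 gene peaks (−2.49) no longer passed with the 100000 strongest (−1.61), −log10 q of at least 5 (−3.41), the 50000 highest by fold enrichment (−2.32), or lists sharing intervals joined to 1 source (−2.99 against all others, adjusted exact p 0.143). The joined setting had 7 sources and 35 distinct assignments, so 1 measure alone could not pass after adjustment over the 5 measures. With the replicate block the share was −2.49 (adjusted exact p 0.139, smallest unadjusted p possible 0.0278), and no other of the 5 measures changed side. Deviations of same-numbered libraries correlated between −0.241 and 0.132 over 9 pairs, 1 of them above 0.1, so the numbers were not taken to pair samples.

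Leaving out 1 library at a time gave 3.56 to 6.79 for the promoter share, which passed without homozygous replicate 3, and −3.83 to −0.816 for the lead, which passed without homozygous replicate 1. It gave 0.134 to 0.859 for body density, which passed without homozygous replicate 3, −0.48 to −0.28 for the log2 ratio and −2.77 to −2.20 for the share. Regions separating homozygous from wild type (17) numbered 27 in the full lists, 1 with absence required there too, 19 to 32 with a library left out, 26 without homozygous replicate 3 and 32 without wild type replicate 3. Regions separating heterozygous from wild type (2) numbered 4 in the full lists, 4 with the 20000 and 4 with the 100000 strongest, 0 with absence required, 2 to 25 with a library left out and 35 without wild type replicate 3 and heterozygous replicate 1. Regions separating homozygous from heterozygous (21) numbered 13 with the 20000 strongest, 7 with absence required and 23 to 29 with a library left out. ZNF genes separated by peak count (11) numbered 18 in the full lists, 7 without flanks, and 12 to 24 with a library left out, the highest without wild type replicate 3. ZNF promoters separating homozygous and wild type (7) numbered 7 to 15 with a library left out and 15 without both shared lists. Those separating heterozygous and wild type (1) numbered 1 to 14 and 18, and those separating homozygous and heterozygous (11) numbered 11 to 18, with 18 without homozygous replicate 3. Clusters passing on their share of peaks (1) numbered 5 in the full lists, 0 to 3 with a library left out and 0 without both shared lists. Those passing on promoter share (1) numbered 3, 0 to 2 and 0. Without both shared lists, too few distinct assignments remain for 1 cluster to pass alone after adjustment over 10 clusters. The 10 promoters fewer in the ZNF575 to ZNF180 cluster were 4 in the full lists, 5 with the 100000 strongest and 8 to 10 with a library left out. Leaving out a library relaxes the rule of separation for every region, gene and promoter, so counts of separation can only stay or rise. For regions and for genes by peak count, the share over all features was not computed in these alternative settings. Changes in those counts therefore cannot be read as particular to ZNF genes. Causes were not tested. Read depth is unknown, so weak peaks limit every count of absence. Leaving out both shared lists, using canonical starts only, and the alternatives for clusters and separating promoters were chosen after seeing the data.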
